A study of Mus musculus with 11 samples.

Results

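The genes described here encode the classical axon guidance ligands and their receptors: Slits and Robo receptors, semaphorins with neuropilins and plexins, ephrins and Eph receptors, and netrins with the Unc5 receptors and Dcc. They were chosen by symbol among 21631 protein-coding genes, and 69 genes were found. Of these, 67 had at least 1 open region assigned to them, and together they held 977 of the 124941 open regions of the study. A region belonged to the gene whose body lay nearest to its midpoint, within 100 kb. Nothing was measured here on RNA or protein, so a locus with more open regions is not a gene with more expression.

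Open chromatin of the mouse esophagus was mapped by ATAC-seq, in which a transposase cuts and tags DNA where nucleosomes leave it accessible. The WT group was CD1 wild-type esophagus, from cells sorted for low EpCAM, an epithelial adhesion protein (3 libraries). The SmoM2 group was Krt5-SmoM2 on the CD1 strain, sorted for high EpCAM (3 libraries). SmoM2 is an active mutant of the Hedgehog signal transducer Smoothened, and the Krt5 name refers to a keratin of basal epithelial cells. The SmoM2-Sox9cKO group was Krt5-SmoM2-Sox9fl/fl, with a floxed gene for the progenitor transcription factor Sox9, also sorted for high EpCAM (3 libraries, strain not given). The Embryo group, taken at embryonic day 13, came from the esophagus of Krt8YFP mice and was sorted by YFP signal (2 libraries). The other 9 libraries are called adult here, but the labels give neither their ages nor sex, nor how Cre was supplied, nor whether replicates were separate animals. P-values therefore measure only the spread between these samples, which may be technical. Since the gate differed between WT and both SmoM2 groups, genotype and gate cannot be told apart in comparisons with WT. Sex is not labelled and may differ too, since WT and SmoM2 lists differed in intervals at Y-linked genes. It cannot be fully told apart from genotype. More cells of a type and more open sites per cell cannot be told apart either.

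The adult lists held 69026 to 87910 distinct intervals on chromosomes 1 to 19 and X, and the Embryo lists 24902 and 14255. Sequencing depth is unknown. At Y-linked genes, the WT lists had 5, 0 and 0 intervals, each SmoM2 list had 9, and the SmoM2-Sox9cKO lists had 8, 10 and 0. Guidance regions made up 0.7465%, 0.7687% and 0.7351% of all occupied regions in WT, 0.7825%, 0.7824% and 0.7646% in SmoM2, and 0.7483%, 0.7572% and 0.7432% in SmoM2-Sox9cKO. SmoM2 and WT overlapped in this share, since WT 2 lay above SmoM2 3.

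Guidance proteins were named for steering growing axons. Slits are secreted and mostly repel cells that carry Robo receptors. Class 3 semaphorins are secreted too and act through neuropilins, which bind the ligand, and plexins, which signal. Ephrins sit on the cell surface and signal through Eph receptor kinases upon contact, in both directions. Netrins attract through Dcc and repel through Unc5 receptors. All of these families also act outside the nervous system, in epithelial boundaries, vessel growth and tissue sorting.

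Start sites of 4 genes are shown because the loci differed between SmoM2 and WT while their starts did not, and the letters show how unlike these starts are. Each run is the 250 bases before a RefSeq start in GRCm38.p6, on the plus strand and 5′ to 3′, with CG dinucleotides in capitals.
Slit2: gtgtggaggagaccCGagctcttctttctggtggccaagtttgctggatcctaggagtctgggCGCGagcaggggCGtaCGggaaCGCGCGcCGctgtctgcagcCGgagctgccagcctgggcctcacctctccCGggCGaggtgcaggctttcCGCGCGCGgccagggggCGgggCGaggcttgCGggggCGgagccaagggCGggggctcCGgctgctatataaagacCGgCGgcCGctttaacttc
Slit3: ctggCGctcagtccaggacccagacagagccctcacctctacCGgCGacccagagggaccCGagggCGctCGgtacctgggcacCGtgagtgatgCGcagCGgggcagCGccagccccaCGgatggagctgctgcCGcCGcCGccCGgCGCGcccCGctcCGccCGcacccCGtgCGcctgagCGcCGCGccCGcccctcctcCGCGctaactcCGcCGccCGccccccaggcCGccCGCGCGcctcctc
Sema3e: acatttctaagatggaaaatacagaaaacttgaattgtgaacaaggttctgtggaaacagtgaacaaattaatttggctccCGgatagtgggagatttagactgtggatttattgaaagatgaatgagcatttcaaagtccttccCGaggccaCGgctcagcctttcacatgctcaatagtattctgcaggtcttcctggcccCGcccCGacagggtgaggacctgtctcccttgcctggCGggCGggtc
Sema3a: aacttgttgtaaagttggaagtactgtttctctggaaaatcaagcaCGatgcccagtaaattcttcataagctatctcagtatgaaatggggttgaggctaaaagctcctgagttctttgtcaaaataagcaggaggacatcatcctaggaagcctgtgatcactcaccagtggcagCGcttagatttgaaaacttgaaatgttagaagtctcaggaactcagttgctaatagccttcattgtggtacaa
The starts of Slit2 (chr5:47982905-47983154 for the bases shown) and Slit3 (chr11:35121206-35121455) hold 25 and 35 CG dinucleotides, and both were occupied in all 9 adult libraries. The start of Sema3e (chr5:14025026-14025275) holds 7 and was also occupied in all 9. The bases before the listed Sema3a start (chr5:13396534-13396783) hold 2, and no library had a region there. That start lies 272 kb inside the Sema3a gene body as RefSeq gives it, and the nearest region open in all 9 adult libraries was centred 2.4 kb downstream of it (chr5:13398244-13400167).

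RefSeq starts were listed for 59 of the 69 genes, 75 starts in all, and a window from 250 bases before to 50 after each start was examined. At 44 genes (74.6%) at least 1 start was occupied in all 9 adult libraries, against 58.4% of 17274 protein-coding genes. At 6 (10.2%) no start was occupied in any adult library, against 34.5%: these were Epha6, Ntn5, Plxnb3, Robo3, Robo4 and Sema3a. At the remaining 9 the most widely occupied start was open in only some adult libraries, a share of 15.3% that lies above the 7.14% of all genes. Among them, the start of Sema3g was occupied in all 3 WT libraries, SmoM2 3 and SmoM2-Sox9cKO 1, and that of Epha10 only in SmoM2-Sox9cKO 2 and 3. Neither formed a group that was wholly occupied against one wholly empty.

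Sequence letters at the starts were counted in the 250 bases before each, on both strands. The median number of CG dinucleotides was 15 over the 75 guidance starts and 10 over 21045 protein-coding starts. It was 17 at the 53 guidance starts occupied in all 9 adult libraries and 3 at the 13 occupied in none, beside 17 and 2 for all genes. The core letters bound by GLI factors, GACCACCCA, were found at 0 of the 75 starts and at 0.162% of all starts. The SOX core ACAAAG was found at 7 (9.33%; 3152 of all 21045 starts), the SOX core ACAATG at 9.33% (8.84%), and the AP-1 core TGANTCA at 4.0% (6.17%). None of these cores contains another.

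**Figure D1:**
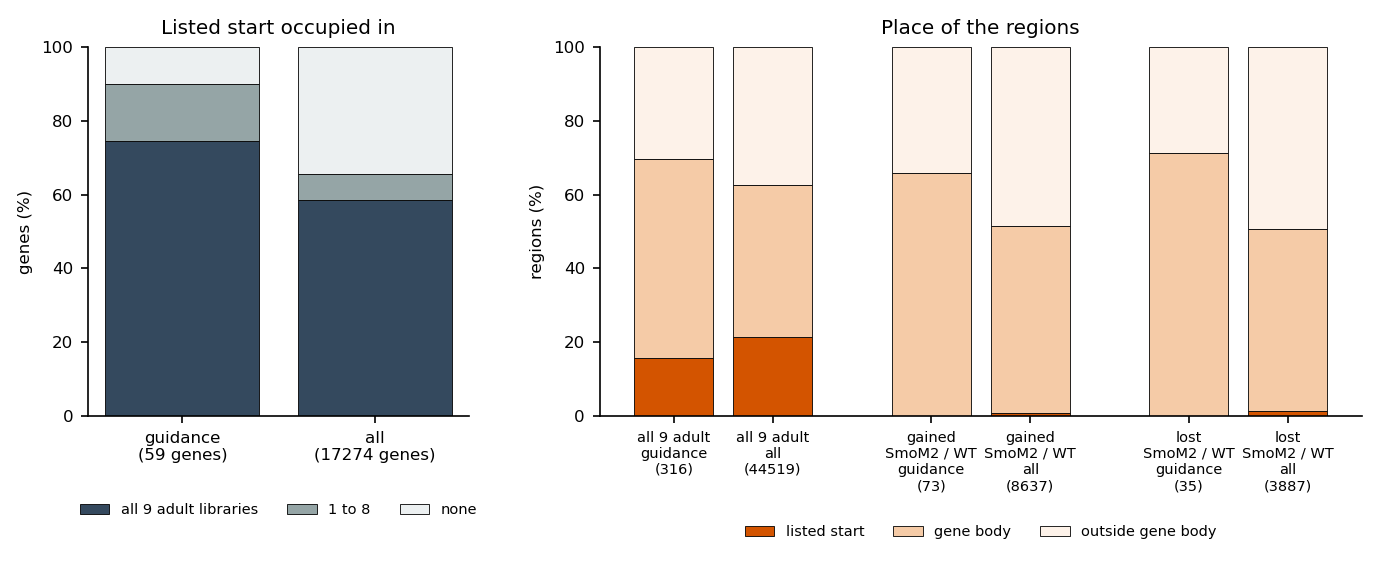
Left, share of genes (%) whose listed start was occupied in all 9, in 1 to 8 or in none of the adult libraries, for 59 guidance genes and 17274 protein-coding genes. Right, share of regions (%) at a listed start, in a gene body or outside one, for regions open in all 9 adult libraries and those gained or lost in SmoM2 against WT. No gained or lost guidance region lay at a listed start.

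SmoM2 cells, sorted for high EpCAM, were compared with WT cells, sorted for low EpCAM, so that genotype and gate differed together. Of the 69 genes, 63 had a mean of at least 1 occupied region over the adult libraries and were tested, among 15365 loci, with limma on scaled region numbers. Those left untested were Dcc, Efnb3, Epha5, Epha6, Ntn5 and Plxnb3; the region at the Epha5 start, open in 8 adult libraries, belonged by the rule to a shorter overlapping gene. In SmoM2, 7 loci rose (11.1% of 63), namely Slit2, Robo2, Sema3a, Sema3e, Epha4, Epha7 and Unc5c, beside 5.2% of all loci tested. Of these, Unc5c reached the mean needed for testing only through SmoM2. Plxna4, Nrp1, Slit3 and Sema6d fell (4 loci, 6.35%), beside 5.75% of all loci. The share that fell was thus near that of all loci. The median log2 change over the 63 was -0.12, and over all loci tested also -0.12, so that a locus with unchanged numbers reads slightly below 0. Without scaling the median over all loci was 0.0, with 4 guidance loci higher and 1 lower, and 764 and 341 of all loci in place of 799 and 884. With SmoM2 1 or SmoM2 2 left out 4 guidance loci rose, with SmoM2 2 left out 1 fell, and with any WT library left out 2 fell.

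**Figure D2:**
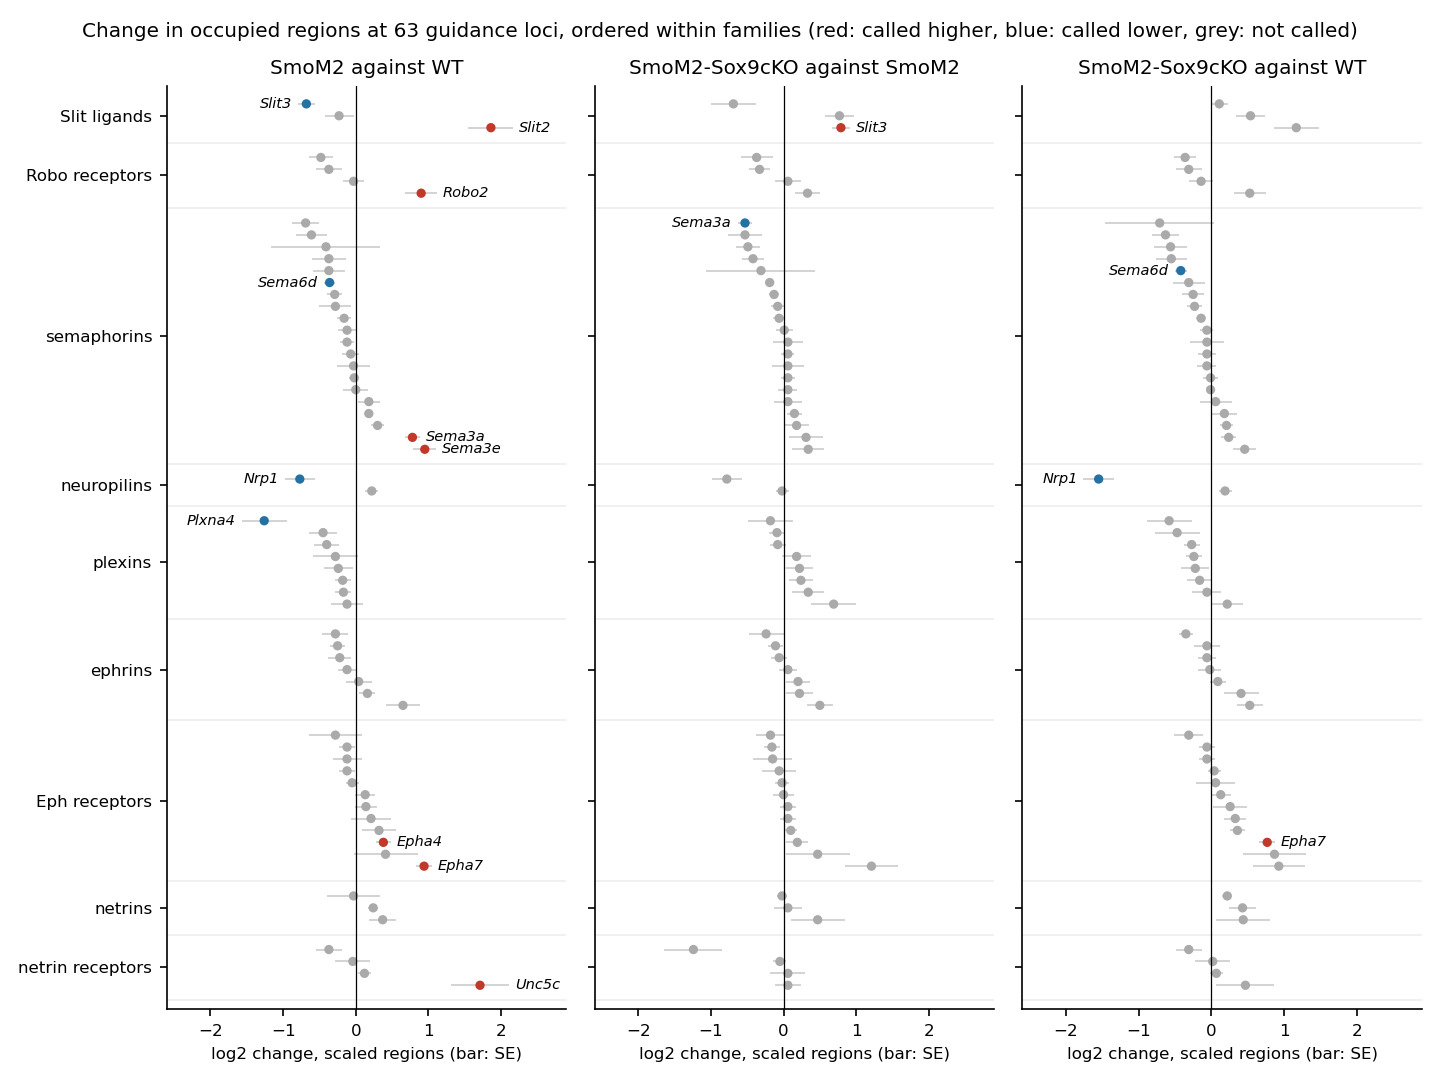
Log2 change in scaled occupied regions with its SE (x axis) for the 63 guidance loci tested, grouped by family and ordered within each, in the 3 adult comparisons. Coloured points passed an adjusted p of 0.05 in limma (3 libraries a group). Most loci lie near 0, and the called loci of SmoM2 against WT run from -1.26 (Plxna4) to 1.86 (Slit2).

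Among the Slit ligands, Slit2 and Slit3 moved in opposite directions. Slit2 (chr5:47981291-48307735) held 1, 2 and 1 occupied regions in WT and 8, 5 and 7 in SmoM2. No SmoM2 library came near the WT libraries, where little beyond the start was open. The log2 change was 1.86 (SE 0.31, adjusted p = 0.00692), and the locus was called under all 16 alternative settings (adjusted p 0.00146 to 0.0482). Slit3 (chr11:35121456-35708507), a much longer gene, held 28, 33 and 32 regions in WT and 24, 18 and 21 in SmoM2. All 3 SmoM2 libraries lay below all 3 WT libraries. Slit3 fell by 0.68 on the log2 scale (SE 0.12, adjusted p = 0.00784), and the call was lost under 2 of 16 alternatives, lists of equal length and a covariate for intervals at Y-linked genes (adjusted p up to 0.0537). Slit1 held 6, 7 and 6 against 4, 7 and 7 regions, which overlap (log2 -0.23, adjusted p = 0.436).

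Of the Robo receptors, Robo2 alone passed the test. Robo2 (chr16:73891976-75447443) held 11, 24 and 16 regions in WT and 34, 33 and 33 in SmoM2. The WT libraries were widely spread, but none reached the SmoM2 level. The log2 change was 0.90 (SE 0.22, adjusted p = 0.0321). This call held in 8 of 16 alternatives and was lost when WT 1, WT 3 or any SmoM2 library was left out (adjusted p up to 0.0895). Lists of equal length, no scaling and the covariate for Y-linked genes also ended it (limma adjusted p up to 0.0954 over all 16). Robo1, on the same chromosome, held 29, 31 and 26 regions in WT and 27, 31 and 34 in SmoM2 (log2 -0.03, adjusted p = 0.889). Robo3 held 6 regions in each WT library and 6, 4 and 4 in SmoM2 (log2 -0.48, adjusted p = 0.111). Robo4, a receptor of blood vessels, held 1 or 2 regions in every adult library.

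All 20 semaphorins were tested, and 2 rose while 1 fell. Sema3a (chr5:13124822-13603485), a secreted repellent that binds Nrp1, held 10, 11 and 11 regions in WT and 21, 21 and 19 in SmoM2. The replicates of each group lay within 2 regions of each other and the groups far apart. The log2 change was 0.78 (SE 0.10, adjusted p = 0.00148). Sema3e (chr5:14025276-14256689), which signals through Plxnd1 without needing a neuropilin, held 9, 14 and 9 regions in WT and 26, 21 and 21 in SmoM2. Again no SmoM2 library overlapped WT (log2 0.95, SE 0.16, adjusted p = 0.00708). Both were called under all 16 alternatives, up to an adjusted p of 0.0147 for Sema3a and 0.0363 for Sema3e.

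These 2 genes are close neighbours, 422 kb apart on chromosome 5 with 3 protein-coding genes between them. On the other side of Sema3a, with no protein-coding gene between, lies Sema3d, 536 kb away. Sema3d held 10, 21 and 14 regions in WT and 15, 15 and 16 in SmoM2 (log2 -0.03, adjusted p = 0.922). Sema3c, 3320 kb beyond Sema3e, held 13, 16 and 13 against 19, 17 and 16 (log2 0.18, adjusted p = 0.433). Of the 4 semaphorin genes of this stretch the inner 2 passed the test and the outer 2 did not; the difference between them was not tested.

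Sema6d (chr2:124089943-124667789), a membrane-bound semaphorin, held 29 regions in each WT library and 24, 22 and 28 in SmoM2. The groups lay apart by 1 region at the nearest. It fell by 0.36 on the log2 scale (SE 0.08, adjusted p = 0.0187). Equal counts in a group leave only the library totals to set its spread, which can make p-values small, and the same holds for WT at Epha4 and Epha7. The Sema6d call held in 9 of 16 alternatives and was lost when WT 1, SmoM2 1 or SmoM2 2 was left out (adjusted p up to 0.0604). Stricter intervals (−log10 q of at least 5), a 20 kb reach, no scaling and covered base pairs also ended it. Over all 16 the limma adjusted p went up to 0.267. The semaphorin with the next largest difference, Sema4a, held 2, 4 and 4 regions in WT and 2 in each SmoM2 library, and missed the threshold (log2 -0.69, adjusted p = 0.0523). The other 16 semaphorins not called ranged from -0.61 to 0.30.

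Nrp1 (chr8:128358591-128505476), the binding receptor of Sema3a, held 7, 8 and 7 regions in WT and 5, 3 and 6 in SmoM2. The groups did not overlap, but the difference was small in numbers. Nrp1 fell by 0.77 (SE 0.21, adjusted p = 0.0483), and the call held in 5 of 16 alternatives and was lost when any of the 6 libraries was left out (adjusted p up to 0.128). A 20 kb reach, no scaling, no filter, the covariate for Y-linked genes and a replicate block also ended it. Over all 16 the limma adjusted p went up to 0.366. Nrp2, which binds other class 3 semaphorins, held 19, 21 and 19 regions in WT and 24, 26 and 25 in SmoM2. Its SmoM2 libraries all lay above WT, yet the scaled change missed the threshold (log2 0.22, adjusted p = 0.158).

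Plxna4 (chr6:32144543-32588192), a signaling partner of Nrp1, held 5, 6 and 5 regions in WT and 3, 1 and 3 in SmoM2. It fell by 1.26 (SE 0.31, adjusted p = 0.0339). This call held in 8 of 16 alternatives and was lost when any WT library, SmoM2 2 or SmoM2 3 was left out (adjusted p up to 0.0945). Stricter intervals, no scaling and the covariate for Y-linked genes also ended it (limma adjusted p up to 0.339 over all 16). All 8 plexins tested had a log2 change below 0, from -1.26 to -0.12. The highest equals the median of all loci, and 7 of the 8 did not pass. Plxnd1, the receptor of Sema3e, held 3 regions in each WT library and 3, 2 and 2 in SmoM2 (log2 -0.45, adjusted p = 0.18). Plxna1 had a log2 change of -0.28 (adjusted p = 0.511) and Plxnb1 of -0.12 (adjusted p = 0.686).

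Among the Eph receptor kinases, Epha7 and Epha4 rose and the other 10 tested did not pass. Epha7 (chr4:28813066-28967503) held 5 regions in each WT library and 12, 10 and 11 in SmoM2. The groups did not overlap. The log2 change was 0.94 (SE 0.11, adjusted p = 0.00124), called under all 16 alternatives (adjusted p up to 0.0134). Epha4 (chr1:77367182-77515107), which binds ephrins of both classes, held 9 regions in each WT library and 13, 12 and 14 in SmoM2. It rose by 0.38 (SE 0.10, adjusted p = 0.0422), in 6 of 16 alternatives, and was lost when WT 2, WT 3 or any SmoM2 library was left out (adjusted p up to 0.121). Stricter intervals, a 20 kb reach, no scaling, covered base pairs and the covariate for Y-linked genes also ended the call. Over all 16 the limma adjusted p went up to 0.223. Ephb2, an epithelial receptor of the B class, held 21, 20 and 23 regions in WT and 23, 21 and 34 in SmoM2 (log2 0.13, adjusted p = 0.516). Epha1 and Ephb6 held 4 regions in every adult library.

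None of the 7 ephrins tested passed. The largest difference was at Efna3, with 2, 3 and 4 regions in WT and 5, 5 and 6 in SmoM2, which missed the threshold (log2 0.65, adjusted p = 0.125). Efnb1, an X-linked ephrin of tissue boundaries, held 10, 10 and 13 against 9, 9 and 13 regions (log2 -0.22, adjusted p = 0.37). Efnb2, the main partner of Ephb4 in vessels, held 12, 14 and 13 against 14, 15 and 19 (log2 0.16, adjusted p = 0.37). Efna5, with the most regions of any ephrin, held 28, 36 and 32 in WT and 26, 29 and 33 in SmoM2 (log2 -0.25, adjusted p = 0.162).

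Of the netrins and their receptors only Unc5c passed. Unc5c (chr3:141465564-141834924), a repulsive netrin receptor, held 0, 1 and 1 regions in WT and 4, 4 and 2 in SmoM2. These are very few regions, although the groups did not overlap. Unc5c had a mean of 0.67 regions in WT, 3.33 in SmoM2 and 1.0 in SmoM2-Sox9cKO. It thus passed the filter for testing only through SmoM2, the group where it was high. The log2 change was 1.71 (SE 0.40, adjusted p = 0.0256), called in 10 of 16 alternatives and lost when SmoM2 1 or SmoM2 2 was left out (adjusted p up to 0.0789). Lists of equal length, a 20 kb reach, no scaling and covered base pairs also ended the call. Over all 16 the limma adjusted p went up to 0.172. Ntn4, a netrin of basement membranes, held 13, 13 and 14 regions in WT and 16, 17 and 19 in SmoM2 and missed the threshold (log2 0.24, adjusted p = 0.0742). Ntn3, the netrin with the largest difference, held 1, 2 and 1 against 2, 2 and 2 (log2 0.37, adjusted p = 0.261). Ntn1 (log2 -0.03, adjusted p = 0.963) and Unc5b (log2 0.12, adjusted p = 0.37) did not pass, and Dcc had no region in any adult library.

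**Figure D3:**
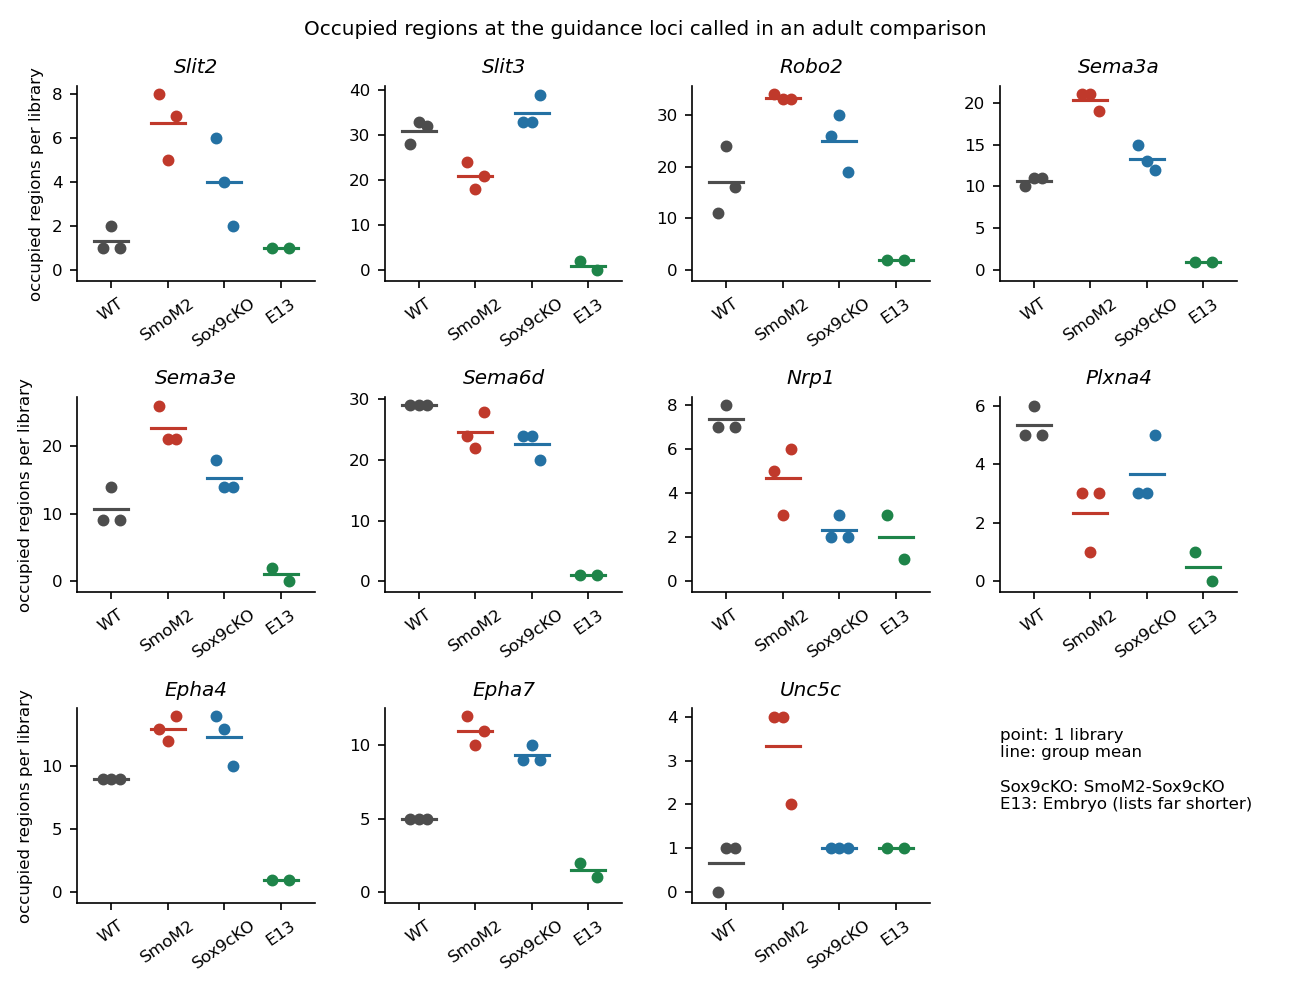
Occupied regions per library (y axis) at the 11 guidance loci called in at least 1 adult comparison; each point is a library and each line a group mean. At Slit3 the SmoM2 libraries (18 to 24) lie below both WT (28 to 33) and SmoM2-Sox9cKO (33 to 39), and at Sema3a (19 to 21) above both (10 to 11 and 12 to 15).

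Ntng1, Ntng2 and Unc5cl, related by name, were kept apart. Ntng1, a membrane-anchored netrin, held 7, 6 and 7 regions in WT and 19, 20 and 22 in SmoM2, and was called higher (log2 1.42, SE 0.13, adjusted p = 0.00036). Unc5cl, a death-domain protein, held 4, 3 and 4 against 2, 1 and 2 and was called lower (log2 -1.10, adjusted p = 0.0127). Ntng2 missed the threshold (log2 -0.32, adjusted p = 0.0965).

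Single regions showed where these differences lay. A region counted as gained if all 3 libraries of the first group and 0 of the 3 of the second had it, and as lost if the roles were swapped. With 3 libraries against 3 a permutation test cannot go below 0.1, so none was made. In SmoM2 against WT, 73 guidance regions were gained (7.47%), beside 6.91% of all regions, and 35 were lost (3.58%), beside 3.11%. Both shares are near those of all regions. None of the 73 or 35 lay at a listed start, and the same was rare among all regions gained (0.753%) and lost (1.29%). Of the 73 gained regions 48 lay in a gene body (65.8%), beside 50.6% of all gained regions; of all 977 guidance regions 64.2% did.

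The 73 gained regions lay in 24 genes. Robo2 had 10 of its 52 regions, Sema3e 9 of 29, Sema3a 7 of 27, Ntn4 5 of 24, Nrp2 4 of 32 and Robo1 4 of 53. At Robo1 these came without a call on the locus, and at Ntn4 and Nrp2 as well. The lost regions lay in 14 genes, with 9 at Slit3 of its 54 regions, followed by Sema6d and Sema5a with 4 each and Nrp1 and Plxna4 with 3 each.

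Named regions are, per called gene, up to 2 that changed in the direction of the locus. They are those with the strongest −log10 p-value of the authors, ranked inside each list. The percentage after each is its median rank, with low values for the strongest intervals. At Sema3a these were chr5:13406156-13407109 (21.13%) and chr5:13451449-13452303 (31.37%), 9.8 and 55.1 kb downstream of the listed start. Both were occupied in all 3 SmoM2 and all 3 SmoM2-Sox9cKO libraries and in no WT library. At Sema3e they were chr5:14201714-14202501 (35.83%) and chr5:14031884-14032505 (46.03%), also kept in all 3 SmoM2-Sox9cKO libraries. At Slit2 they were chr5:48113022-48113686 (38.65%) and chr5:48013549-48014836 (44.39%), 130.2 and 31.0 kb inside the gene, each kept in 2 of 3 SmoM2-Sox9cKO libraries. The third gained Slit2 region, chr5:47982105-47982412, lay at -0.9 kb from its listed start and was named after its values were seen.

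At Robo2 the 2 were chr16:75215111-75215979 (47.77%), in 2 of 3 SmoM2-Sox9cKO libraries, and chr16:74542381-74543220 (49.16%), in all 3. Relative to the start that was open in all adult libraries they lay at -803.7 and -131.0 kb, inside the gene body, which reaches to a start listed further upstream. At Epha7 all 3 gained regions lay beyond the 3′ end, and the named ones, chr4:29004181-29005037 (50.74%) and chr4:28993209-28993872 (52.23%), were kept in all 3 SmoM2-Sox9cKO libraries. At Epha4, chr1:77510519-77511043 (47.19%) lay 4.3 kb inside the gene and was kept in all 3, and chr1:77349875-77350988 (61.63%) in 2. Unc5c had 1 gained region, chr3:141649496-141650208 (58.22%), absent again from SmoM2-Sox9cKO.

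Among lost regions, chr11:35178158-35178911 (32.98%) in Slit3 was found only in WT of the adult groups. At Nrp1 chr8:128363180-128363672 (86.3%) and chr8:128272872-128273392 (88.23%), and at Plxna4 chr6:32519910-32520722 (73.38%) and chr6:32598719-32599211 (85.53%), were also absent from both SmoM2 groups. At Sema6d chr2:124722205-124722743 (67.44%) was absent from both, and chr2:124522088-124522937 (72.54%) was present again in all 3 SmoM2-Sox9cKO libraries. The Nrp1 regions stood among the weaker intervals of their lists. Some called loci also had regions that changed the other way. Slit3 had 1 gained region, Epha4 had 1 lost region and Sema6d had 2 gained regions. Of those at Sema6d, chr2:124349840-124350346 (37.48%) was open in SmoM2 only of the adult groups. It was named after its values were seen.

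The comparison of SmoM2-Sox9cKO with SmoM2 set cells with floxed Sox9 alleles beside SmoM2 cells sorted with the same gate. The SmoM2-Sox9cKO strain is not given, and SmoM2-Sox9cKO 3 had 0 intervals at Y-linked genes against 9 in each SmoM2 list. Strain and sex can therefore not be fully told apart from the Sox9 genotype. This comparison shares its SmoM2 libraries with the one above. Slit3 rose (1 of 63 loci, 1.59%), beside 0.423% of all loci tested, and Sema3a fell (1 of 63, 1.59%), beside 0.43%. At an unadjusted p under 0.05, 4 of the 63 guidance loci were higher (6.35%) and 7 lower (11.1%), beside 6.81% and 4.93% of all loci. Slit3 held 24, 18 and 21 regions in SmoM2 and 33, 33 and 39 in SmoM2-Sox9cKO. These groups did not overlap, and the SmoM2-Sox9cKO libraries reached or passed the highest WT count of 33. The log2 change was 0.79 (SE 0.12, adjusted p = 0.0204). The call held in 9 of 16 alternatives and was lost when SmoM2 2, SmoM2 3 or SmoM2-Sox9cKO 3 was left out (adjusted p up to 0.0698). Stricter intervals, lists of equal length, no scaling and the covariate for Y-linked genes also ended it. Over all 16 the limma adjusted p went up to 0.175.

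Sema3a held 21, 21 and 19 regions in SmoM2 and 15, 13 and 12 in SmoM2-Sox9cKO, still above the WT counts of 10 to 11. It fell by 0.53 (SE 0.10, adjusted p = 0.0441). That call held in 7 of 16 alternatives and was lost when SmoM2 1, SmoM2 2 or any SmoM2-Sox9cKO library was left out (adjusted p up to 0.152). Stricter intervals, covered base pairs, the covariate for Y-linked genes and a replicate block also ended it. Among the loci that did not pass, Epha10 had 1, 2 and 2 against 3, 6 and 4 regions (log2 1.21, adjusted p = 0.232), and Unc5c 4, 4 and 2 against 1, 1 and 1 (log2 -1.24, adjusted p = 0.261). Slit1 had 4, 7 and 7 against 12, 8 and 10 regions (log2 0.77, adjusted p = 0.157), and Nrp1 5, 3 and 6 against 2, 3 and 2 (log2 -0.78, adjusted p = 0.178). Slit2 had 8, 5 and 7 against 6, 4 and 2 regions, which overlap (log2 -0.69, adjusted p = 0.442).

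In SmoM2-Sox9cKO against SmoM2, 10 guidance regions were gained (1.02%), beside 0.678% of all regions, and 18 were lost (1.84%), beside 1.34%. Of the 10, 5 lay in Slit3. Of these, 3 were regions that WT had and SmoM2 lacked: chr11:35550029-35550796 (45.82%), chr11:35151296-35152264 (65.69%) and chr11:35261361-35262117. The other 2, chr11:35231465-35232098 and chr11:35248014-35248894, were open in SmoM2-Sox9cKO only. The last 3 were named after their values were seen. These 5 gained Slit3 regions thus included both regions that WT had and regions that WT lacked. Slit3 regions open in only some libraries of a group were not divided in this way. The lost Sema3a region was chr5:13376860-13377273 (81.38%), open in SmoM2 only. At Efna1 a region at the listed start, chr3:89280976-89281600, was open in all 3 SmoM2-Sox9cKO libraries, in 1 Embryo library and in no other, and was also named after its values were seen. With a median rank of 96.97% it was among the weakest intervals. It adjoins a region that was open at that start in all 9 adult libraries.

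Of the 73 guidance regions gained in SmoM2 against WT, 27 (37.0%) were occupied in all 3 SmoM2-Sox9cKO libraries, 33 (45.2%) in 1 or 2 and 13 (17.8%) in none. Over all gained regions these shares were 44.9%, 41.7% and 13.4%. Of the 35 lost regions 4 (11.4%) were back in all 3 libraries, 9 (25.7%) in 1 or 2 and 22 (62.9%) in none, beside 7.92%, 35.1% and 57.0% of all lost regions. Guidance regions thus stood close to the rest of the genome in this respect.

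**Figure D4:**
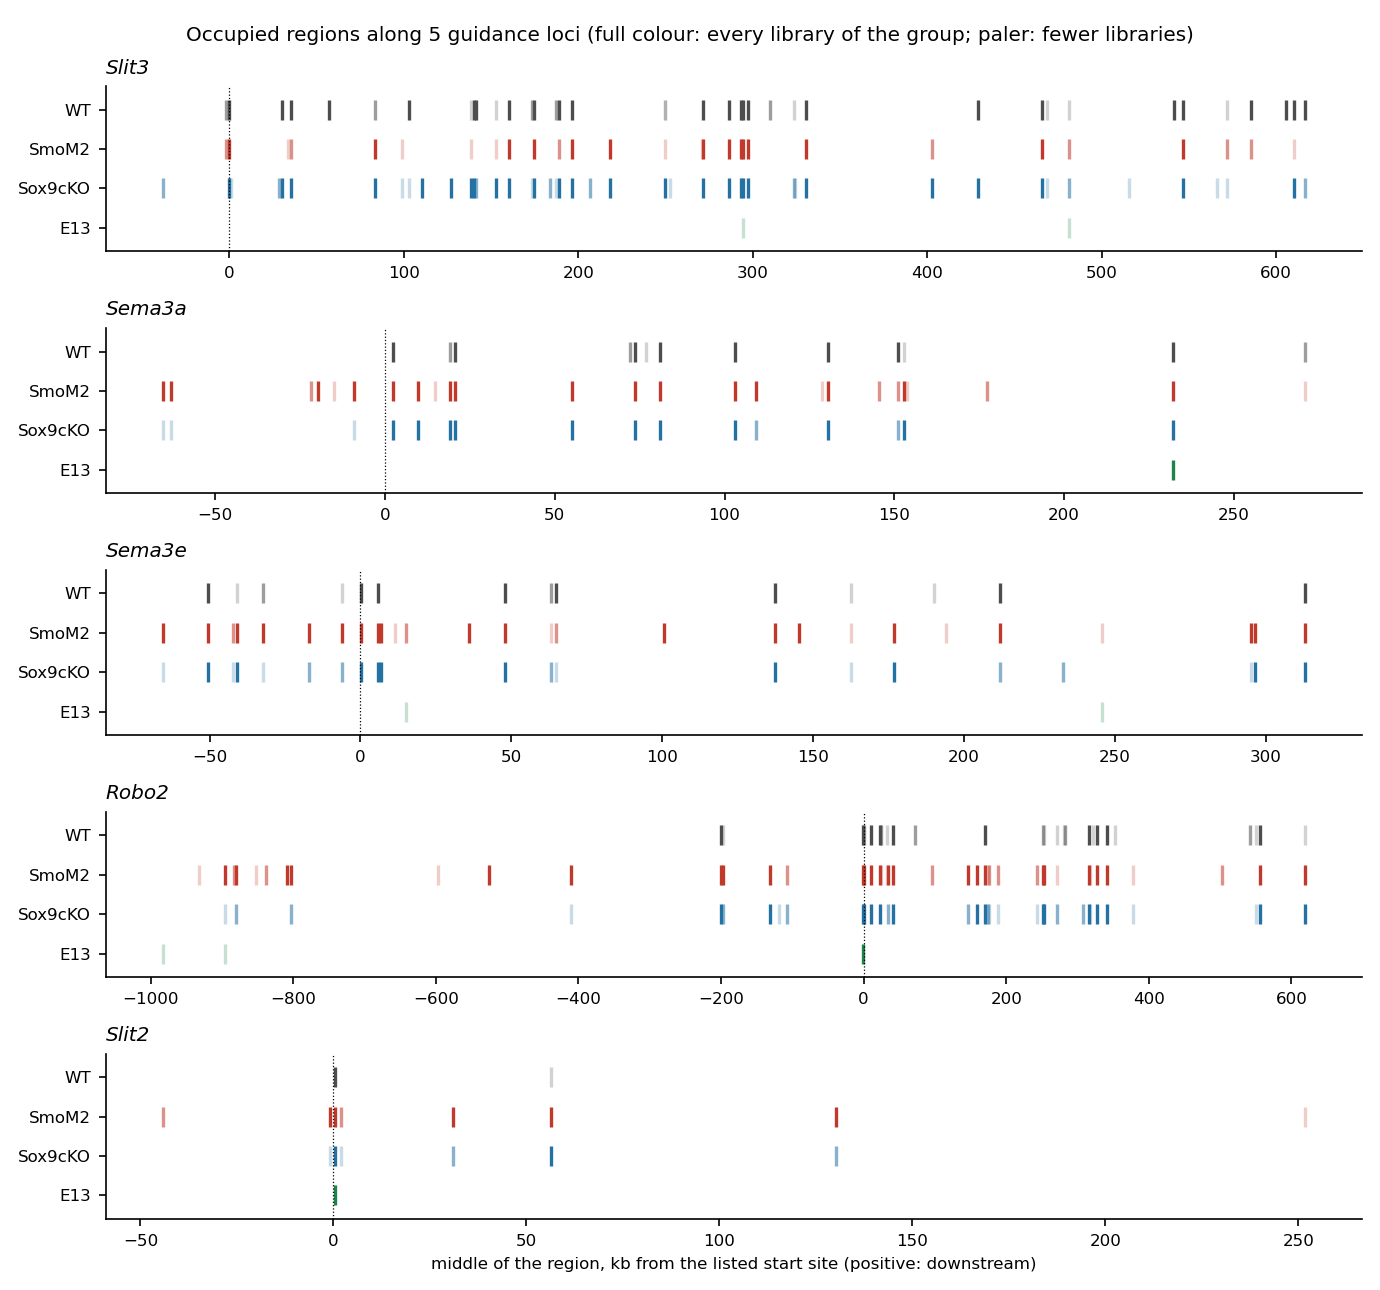
Regions of Slit3, Sema3a, Sema3e, Robo2 and Slit2 by the distance of their middle from the listed start (x axis, kb; for Robo2 the start open in all adult libraries), with 1 row per group; full colour marks regions open in every library of the group, paler marks fewer. SmoM2 lacks Slit3 regions that WT and SmoM2-Sox9cKO share, as at 30.3 and 429.0 kb, and Robo2 shows SmoM2 regions far before the start.

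SmoM2-Sox9cKO was also compared with WT, which differs in the gate and in strain information. Epha7 rose (1 of 63 loci, 1.59%), beside 3.99% of all loci tested, and Nrp1 and Sema6d fell (2 loci, 3.17%), beside 3.42%. Epha7 held 5 regions in each WT library and 9, 10 and 9 in SmoM2-Sox9cKO. The groups did not overlap (log2 0.77, SE 0.11, adjusted p = 0.00347), and the call was lost only with regions limited to 20 kb from the gene body (adjusted p = 0.0648). Its gained regions lie beyond the gene end. Nrp1 held 7, 8 and 7 regions in WT and 2, 3 and 2 in SmoM2-Sox9cKO. It fell by 1.55 (SE 0.21, adjusted p = 0.0029), and of 16 alternatives only lists of equal length ended the call (adjusted p = 0.0725). Here Nrp1 lost 4 regions, the highest ranked being chr8:128277833-128278769 (51.76%), at -80.8 kb from its start. Sema6d held 29 regions in each WT library and 24, 24 and 20 in SmoM2-Sox9cKO, and fell by 0.42 (SE 0.08, adjusted p = 0.0129) in 12 of 16 alternatives.

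Slit2 had 6, 4 and 2 regions in SmoM2-Sox9cKO, and against WT it missed the threshold (log2 1.17, adjusted p = 0.0575). Slit3, with a log2 change of 0.11 (adjusted p = 0.713), and Sema3a, with 0.24 (adjusted p = 0.18), did not pass either. Guidance regions gained against WT numbered 35 (3.58%), beside 4.26% of all regions, and those lost 30 (3.07%), beside 2.69%. The median log2 change over the 63 loci was -0.02, and -0.06 over all loci.

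Genes that carry guidance signals onward or bind the same ligands were examined as a list of 74, of which 73 were tested. In SmoM2 against WT 4 rose (5.48%) and 5 fell (6.85%), shares near the 5.2% and 5.75% of all loci, so that the counts set the list apart in neither direction. Srgap1 and Srgap3, GTPase-activating proteins that bind Robo receptors, were both among those that rose. Srgap1 went from 10, 13 and 10 to 23, 19 and 21 regions (log2 0.79) and Srgap3 from 3, 4 and 4 to 8, 9 and 9 (log2 1.02). Their relative Srgap2 did not pass (log2 0.15, adjusted p = 0.487). Elmo1, which helps activate Rac, went from 8, 8 and 9 to 26, 21 and 25 (log2 1.34), and Mical3, of a family that takes part in plexin signaling, from 23, 23 and 25 to 30, 29 and 35 (log2 0.27).

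Those that fell included Cxcl12, a chemokine, from 4, 3 and 3 regions to 1 in each SmoM2 library (log2 -1.47), and Grb10, an adaptor of receptor kinases, from 2, 4 and 4 to 1 in each (log2 -1.43). Rgmb, which binds the netrin receptor Neo1, went from 6, 7 and 8 to 5, 3 and 5 (log2 -0.78), Chn2, a Rac regulator, from 13, 15 and 13 to 9, 8 and 10 (log2 -0.70), and Gpc1 also fell. Neo1 itself held 10, 10 and 11 against 10, 11 and 13 regions (log2 0.00, adjusted p = 0.995). In SmoM2-Sox9cKO against SmoM2, limma called 0 of the 73 in either direction, with 6 higher (8.22%) and 4 lower (5.48%) at an unadjusted p under 0.05, beside 6.81% and 4.93% of all loci. Against WT, Elmo1, Srgap1 and Srgap3 rose in SmoM2-Sox9cKO (3 genes, 4.11%, beside 3.99% of all loci), and Grb10, Cxcl12, Rgmb and Chn2 fell (4 genes, 5.48%, beside 3.42%). The median log2 change of the list was -0.07, 0.06 and -0.01 in the 3 comparisons, close to that of all loci.

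Markers of other cells the gates could hold were examined in the same fit, in which 5.2% of all loci rose and 5.75% fell in SmoM2 against WT. The lists are short, so that 1 called gene makes up 6.67% to 14.3% of a list. Among 15 neural and Schwann cell markers tested, 3 rose in SmoM2 against WT, Snap25, Stmn2 and Syt1 of neurons, and Hand2 fell. The summed regions of that list of 18 were 68 to 82 in WT, 81 to 89 in SmoM2 and 79 to 93 in SmoM2-Sox9cKO, and every marker had a region in some adult library. Of 14 endothelial markers Cdh5, Emcn and Pecam1 rose (21.4%) and Flt1 and Esam fell (14.3%), with sums of 68 to 83, 78 to 95 and 91 to 93. Of 7 fibroblast markers tested Twist2 rose and Dpt and Tbx15 fell, with sums of 26 to 32, 25 to 26 and 26 to 31 and Lum at 0. Of 8 immune markers tested Ptprc rose, with sums of 13 to 19, 17 to 22 and 18 to 22 and Cd79a, Itgax and Lyz2 at 0. Ptprc held 0 regions in each WT library and 6, 1 and 2 in SmoM2, most of them in SmoM2 1. Its regions in SmoM2, the group where it was high, alone met the mean needed for testing.

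The smooth muscle marker Acta2 fell (1 of 7 tested), with sums of 25 to 28, 21 to 30 and 21 to 29 and Tagln at 0. Of 13 markers of the esophageal epithelium Krt4 alone was called, lower, with sums of 118 to 129, 127 to 154 and 138 to 148. Of 14 columnar epithelium markers tested 0 were called by limma, with sums of 31 to 40, 40 to 52 and 41 to 53 and Cdx1 and Tff3 at 0. At an unadjusted p under 0.05, 2 were higher (14.3%) and 1 lower (7.14%), beside 10.4% and 14.3% of all loci. In SmoM2-Sox9cKO against SmoM2 limma called 0 markers of these lists. At an unadjusted p under 0.05, at most 2 were higher and at most 1 lower in any list, beside 6.81% and 4.93% of all loci. The 2 higher made up 13.3% of the neural and Schwann list and 28.6% of the fibroblast list. In SmoM2-Sox9cKO against WT, Snap25, Stmn2 and Syt1 rose and Hand2 fell, and of the endothelial markers 5 rose and 1 fell, beside 3.99% and 3.42% of all loci. In that comparison the smooth muscle markers Acta2 (log2 -1.02) and Cnn1 (log2 -0.55) fell, the fibroblast marker Twist2 rose (log2 2.57) and Twist1 fell (log2 -1.12), and the columnar marker Agr2 fell (log2 -0.89). The part of other cells in the guidance changes was not tested.

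In the embryonic libraries few guidance regions were open. Of the 977 regions, 137 (14.0%) were occupied in Embryo 1 and 68 (6.96%) in Embryo 2, beside 19.6% and 11.2% of all regions. Age, sort, genotype and list length all differ from the adult groups and cannot be told apart. Starts were open more often: 25 of 59 genes (42.4%) had a start occupied in both Embryo libraries, beside 41.9% of all genes. Slit2, Robo1, Robo2, Epha4 and Epha7 were among them, while the start of Slit3 was occupied in neither. Of the 73 regions gained in SmoM2 against WT, 2 (2.74%) were occupied in an Embryo library, beside 4.78% of all gained regions.

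Epha3, a receptor for A-class ephrins, was one of few loci with more regions in the embryo. It held 4 and 3 regions in Embryo, 2 in 8 adult libraries and 1 in SmoM2-Sox9cKO 2. The extra ones were chr16:63833295-63834467, found in both Embryo libraries and in no adult library, and chr16:63460650-63462135, found in both and in 1 SmoM2-Sox9cKO library. These were named after their values were seen.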

How the data were processed

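Open chromatin was measured by ATAC-seq in 11 libraries. Per the submitters' processing notes, Trimmomatic, Bowtie2, Picard, MACS2 and deepTools were used with GRCm38/mm10; versions, settings and read numbers are not stated there. One interval list per library was used. The score, fold enrichment, −log10 p-value and −log10 q-value of each interval are the authors' deposited peak caller values; the score was not used. Only positions entered the main results; the −log10 p-value ranked named regions and the −log10 q-value served a stricter setting (at least 5).

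An interval listed again for a further summit was counted once. Intervals of all lists on chromosomes 1 to 19 and X that overlapped by at least 1 bp were merged into 124941 regions, and a library occupied each region that one of its intervals touched. Regions went to the nearest protein-coding gene body of RefSeq GRCm38.p6 within 100 kb, and to the shorter gene where bodies overlap. The 15365 loci whose occupied regions averaged 1 or more over the 9 adult libraries were tested with limma 3.58.1 (R 4.3.3, trend on, robust off) on log2((regions + 0.5) / (total occupied regions + 1) × 100000), with the 3 adult groups in one fit and Benjamini-Hochberg adjustment within each comparison at 0.05. The fit was also run on simulated data with known decreases in SmoM2 and no spread beyond sampling and library totals. That run does not bear on increases or on the real spread between libraries. Start sites and sequences are RefSeq's (GRCm38.p6). Coordinates are 1-based.

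The genes and lists were chosen with earlier results of these data known. Genes named with values are all those called in an adult comparison, the one with the largest absolute change per family in SmoM2 against WT, a fixed list of well-known members, and up to 4 downstream genes per direction. Slit1, Robo3, Robo4, Sema3d, Sema3g, Sema4a, Efna5, Epha1, Epha3, Epha10, Ephb6, Srgap2, Gpc1 and the 3 genes kept apart were named in addition, after their values were seen. Alternatives are listed with their effects in the closing section. Same-numbered libraries of different groups did not deviate together (correlations of -0.0672 to 0.0802).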

Additional observations from a re-analysis of the deposited data

Results flagged for a closer look

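In the Embryo libraries, 32 guidance regions were open that were in no adult library, although the Embryo lists are far shorter. These regions lay in 23 genes. Of the 32 regions, 22 lay in the gene body and none at a listed start. Only 5 were found in both Embryo libraries: 2 at Robo1 and 1 each at Epha3, Ephb3 and Sema4a. The single region of Dcc, the attractive netrin receptor, was among the 32 and was occupied in Embryo 2 only. Over all loci, 3.7% of regions were open in no adult library, beside 3.28% of guidance regions.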

How the results depend on the processing

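Each result was recomputed with only intervals of −log10 q of at least 5 (stricter), lists shortened to the 69026 strongest intervals (equal length), no scaling, covered base pairs, a 20 kb reach, a pseudocount of 1, no filter, a covariate for intervals at Y-linked genes, a replicate block, each library left out, and, chosen after seeing the data, regions given to the longer gene where bodies overlap. No called locus changed direction under any of these. In SmoM2 against WT Epha7, Sema3a, Sema3e and Slit2 were called under all 16 alternatives, and the other 7 called loci were each lost under at least 2.

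In SmoM2 against WT the 7 higher loci became 4 without scaling, and 4 to 7 with 1 library left out (4 without SmoM2 1 or SmoM2 2). The 4 lower loci became 2 at 20 kb, 1 without scaling, 1 with the Y covariate, and 1 to 3 with 1 library left out (1 without SmoM2 2, and 2 without any WT library). In SmoM2-Sox9cKO against SmoM2 the single higher locus became 0 with equal length, no scaling or the Y covariate, and 0 to 1 with 1 library left out (0 without SmoM2 2, SmoM2 3 or SmoM2-Sox9cKO 3). The single lower locus became 0 with stricter intervals, covered base pairs, the Y covariate or the replicate block, and 0 to 1 with 1 library left out (1 only without SmoM2 3). In SmoM2-Sox9cKO against WT the 1 higher locus became 4 with stricter intervals, 3 with equal length or the Y covariate, 0 at 20 kb, 2 with covered base pairs, a pseudocount of 1 or the replicate block, and 1 to 4 with 1 library left out (4 without WT 2, 3 without SmoM2-Sox9cKO 3, and 2 without WT 3). The 2 lower loci became 4 with stricter intervals, 1 with equal length or without scaling, and 2 to 3 with 1 library left out.

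Same-numbered libraries did not pair, so the replicate block is given only here: with the block 7 loci were higher and 3 lower in SmoM2 against WT, 1 and 0 in SmoM2-Sox9cKO against SmoM2, and 2 and 3 in SmoM2-Sox9cKO against WT. Single regions lost in SmoM2 against WT numbered 20 with stricter intervals, 55 with at least 50% of a region covered, and 37 to 56 with 1 library left out (56 without WT 1), in place of 35; those gained numbered 77 to 107, in place of 73. In SmoM2-Sox9cKO against SmoM2 the 10 gained became 11 to 19 (19 without SmoM2-Sox9cKO 1, 18 without SmoM2 3), and the 18 lost became 9 with stricter intervals and 20 to 35 (35 without SmoM2-Sox9cKO 1, 33 without SmoM2 2, 28 without SmoM2 1). In SmoM2-Sox9cKO against WT the 35 gained became 39 to 63 (63 without SmoM2-Sox9cKO 3) and the 30 lost became 18 with stricter intervals and 33 to 49 (49 without WT 1). Leaving out a library can only add gained or lost regions, since fewer libraries have to agree; other causes were not tested. Lists give no read numbers, so a region that falls short of the peak caller's threshold cannot be told from a closed one.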
